A study of Homo sapiens with 4 samples.

Results

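Tumour cells carry surface proteins that tell T cells, natural killer (NK) cells and macrophages to attack or to hold back, and 10 genes for such proteins were followed in a breast cancer cell line after knockdown of EMP2. The genes were taken by name from the deposited expression table, where all 10 were found among 25343 genes. They encode ligands of the T cell checkpoint receptors (CD274, PDCD1LG2, CD276 and VTCN1), the macrophage checkpoint ligand CD47, the nectin-like ligand PVR, the adenosine-forming enzyme NT5E and ligands of the NK receptor NKG2D (MICA, MICB and ULBP2). RNA came from SUM149PT, a line established from an inflammatory breast cancer and grown here in serum-containing medium with insulin and hydrocortisone. Cells of both groups were stably infected with a lentivirus: those of the 2 control libraries (vector cells) with a control vector, and those of the 2 knockdown libraries with a short hairpin RNA against EMP2, the gene of epithelial membrane protein 2. The source names give both knockdown libraries the same hairpin, so an effect of EMP2 loss and an effect of that hairpin or of that infected population cannot be told apart. The labels do not say whether the libraries of a group were grown as separate cultures. The p-values therefore measure the spread between these libraries alone, which may be technical.

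The families work by different routes. Ligands of the B7 family bind receptors on T cells; CD274 (PD-L1) and PDCD1LG2 (PD-L2) both bind the inhibitory receptor PDCD1, and interferon gamma is their best known inducer. CD47 binds SIRPA on macrophages and restrains phagocytosis, whereas MICA, MICB and the ULBP proteins are stress-induced relatives of MHC class I that activate NK cells through NKG2D and can be shed from the cell surface by metalloproteases. NT5E (CD73) turns extracellular AMP into adenosine, which dampens lymphocytes.

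The libraries held between 13360907 and 14647053 reads. EMP2, the targeted gene, stood at 126.1 and 124.6 CPM in vector cells and at 23.0 and 22.6 CPM in knockdown cells. Levels are TMM-normalized CPM, read counts scaled to a common library size and so that the bulk of genes is equal between libraries. The epithelial markers EPCAM, KRT8, KRT18, KRT19, KRT5, KRT17 and CDH1 were present in every library, with summed levels of 5146 and 5188 CPM in vector cells and 5429 and 5466 CPM in knockdown cells. Of 13 leukocyte markers CD3D, CD3E, MS4A1 and NKG7 were at 0 in all 4 libraries and PTPRC, the leukocyte common antigen, was at most 0.287 CPM. The sum of the 13 was 90.2 and 95.2 CPM in vector cells and 71.6 and 68.5 CPM in knockdown cells, and CD68, which epithelial lines can also express, made up most of it. Of 15 lymphocyte receptors 12 were under 1 CPM in all libraries, 5 of them (PDCD1, ICOS, TIGIT, NCR1 and NCR3) at 0 throughout, while LAG3 was at 1.12 to 1.52 CPM, HAVCR2 at 1.00 to 1.52 CPM and KLRD1 at 4.05 to 6.57 CPM; KLRK1, the NKG2D gene, was at 0 in 3 and at 0.151 CPM in 1. The fibroblast markers summed to 115.0 and 114.6 CPM against 87.1 and 88.1 CPM, with COL1A2 at 0 in all libraries, COL1A1 at 38.6 and 43.8 CPM against 44.1 and 46.4 CPM, and DCN at 75.4 and 70.0 CPM against 42.7 and 40.8 CPM. The part of these marker shifts in the results below was not tested. The libraries are bulk RNA, in which fewer cells of a type and less RNA per cell cannot be told apart.

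MICB, MICA and CD47 rose in the knockdown, and none of the 8 tested genes fell. MICB rose 1.48-fold, MICA 1.29-fold and CD47 1.17-fold in mean CPM. CD276, VTCN1, PVR, NT5E and ULBP2 did not pass the test. CD274 and PDCD1LG2 were under 1 CPM in at least 3 libraries, are reported as low, and were not tested. The test was limma on log2(CPM + 0.5), adjusted by Benjamini-Hochberg over the 13661 genes that reached 1 CPM in 2 or more libraries, and a call is an adjusted p under 0.05. The other 8 genes were above 1 CPM in all 4 libraries, so none passed the filter through the knockdown alone. Of these 8, 3 were called higher (37.5%) and 0 lower by limma; 0 were lower at an unadjusted p under 0.05, and edgeR and DESeq2 also called 0 lower. Among all tested genes 16.6% were called higher, 16.8% lower and 33.4% in either direction, so the share of these genes called in either direction lay near that of all genes. With edgeR 3 of the 8 were called higher, beside 15.6% of all genes higher and 17.4% lower; with limma without its abundance trend 2 were, beside 6.71% and 7.44%; and with DESeq2 1 was, beside 7.27% and 8.65%. Both knockdown libraries exceeded both controls for 5 of the 8 (MICA, MICB, CD47, CD276 and NT5E) and lay below them for 0, beside 33.4% and 32.3% of all genes. Their median log2 change was 0.14, beside 0.0037 over all genes tested.

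**Figure D1:**
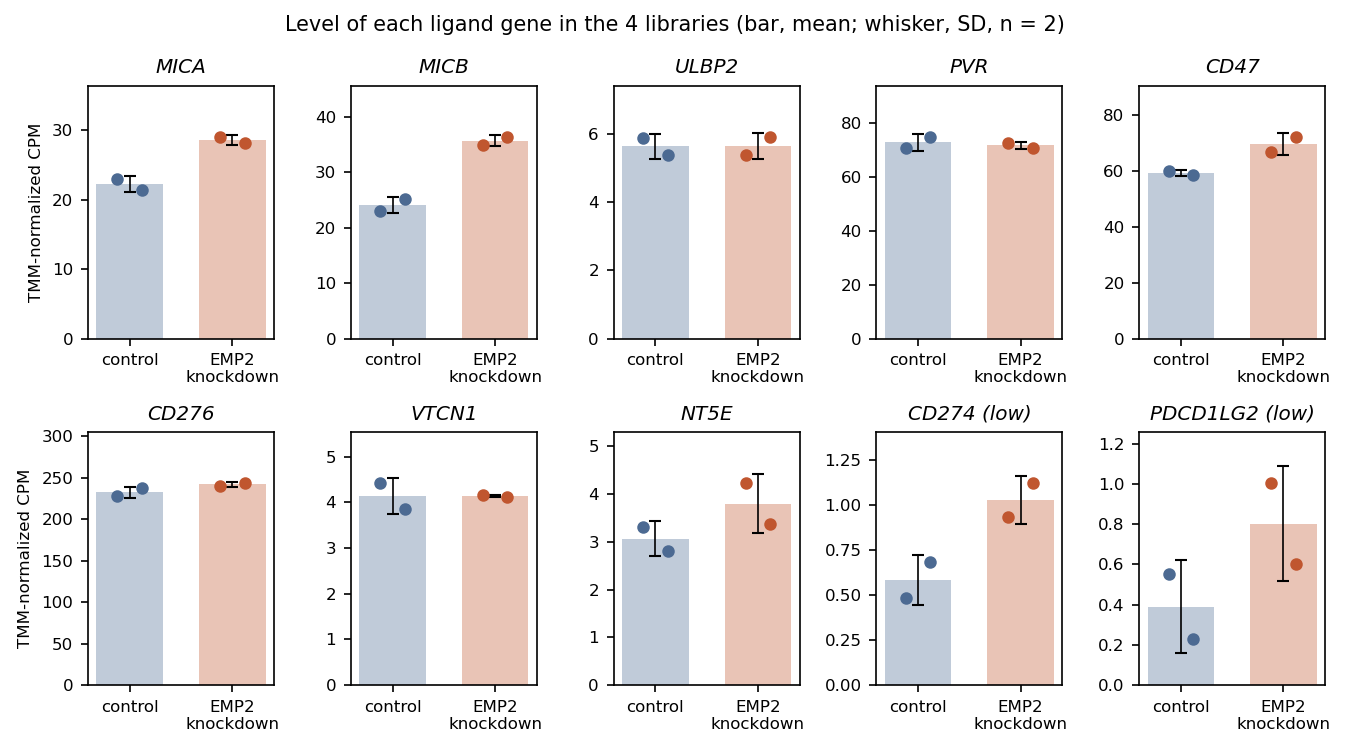
Level of each of the 10 ligand genes in TMM-normalized CPM (y axis, from 0, with a scale of its own in each panel) in the control and EMP2 knockdown groups; points are libraries, bars means and whiskers SD, n = 2. The 2 knockdown points of MICA, MICB and CD47 lie above both control points, while those of ULBP2, PVR and VTCN1 mix with the controls; CD274 and PDCD1LG2 stay near 1 CPM or below.

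**Figure D2:**
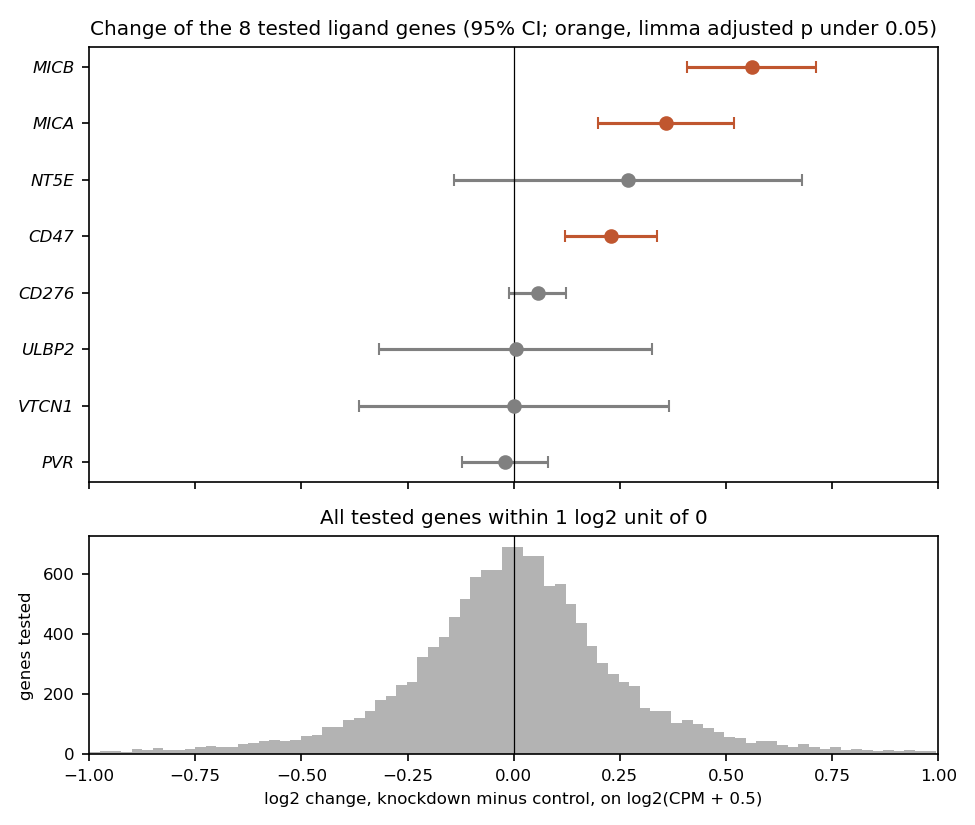
Upper panel, log2 change (knockdown minus control, x axis) of the 8 tested ligand genes with 95% confidence intervals, in orange where the limma adjusted p was under 0.05; lower panel, number of tested genes (y axis) at each log2 change, for the 13406 of 13661 genes within 1 log2 unit of 0. The intervals of MICB, MICA and CD47 lie wholly above 0, and the wide intervals of NT5E, VTCN1 and ULBP2 go with their low levels.

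MICA and MICB encode closely related NKG2D ligands that lie side by side in the MHC class I region, and both rose. MICB was at 23.0 and 25.1 CPM in vector cells and at 34.9 and 36.4 CPM in knockdown cells. The average over libraries was 24.1 ± 1.44 CPM and 35.7 ± 1.04 CPM (SD, n = 2), a log2 change of 0.56 (SE 0.072, 95% confidence interval 0.41 to 0.71, limma adjusted p = 1.19e-05). Both knockdown libraries stood well above both controls, and the change was larger than that of 96.4% of the tested genes. MICA was at 23.0 and 21.4 CPM in vector cells and at 29.1 and 28.2 CPM in knockdown cells. The averages were 22.2 ± 1.13 CPM and 28.6 ± 0.680 CPM (SD, n = 2), a log2 change of 0.36 (SE 0.075, limma adjusted p = 0.0014, 95% confidence interval 0.20 to 0.52). The groups did not overlap for either gene, as for 33.4% of all tested genes with the knockdown above. The call of MICA, but not that of MICB, was lost with DESeq2 (adjusted p = 0.0591; 0.000983 to 0.0591 over its alternatives).

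MICA lies at chr6:31399784-31415315 and MICB at chr6:31494881-31511124, both on the plus strand (GRCh38). Reads of such relatives can be confused, so the GENCODE 29 transcripts were cut into all stretches of 50 bases, the read length. Of the stretches of MICA 1.89% also occurred in MICB, and of those of MICB 1.61% occurred in MICA; the longest run the genes shared was 71 bases. Summed over both genes, which reads misplaced between them cannot change, the level was 46.1 and 46.5 CPM in vector cells and 64.1 and 64.6 CPM in knockdown cells. The ratio of MICB to MICA was 1.00 and 1.17 in vector cells and 1.20 and 1.29 in knockdown cells, and this ratio was not tested. MICA and MICB are highly polymorphic, and the sources used here do not give the alleles of SUM149PT; how allelic differences affect the level was not tested. The noncoding gene HCP5 overlaps MICA on the same strand and was at 5.26 and 3.86 CPM in vector cells and at 5.31 and 5.62 CPM in knockdown cells, below MICA in each library.

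The sequences before the starts of MICA and MICB are shown because these genes moved together and their upstream regions are alike. They are the 250 bases before each RefSeq start (GRCh38.p14, plus strand, chr6:31403345-31403594 for MICA and chr6:31497895-31498144 for MICB), with the core of a heat shock element, GAANNTTC, in capitals.
MICA: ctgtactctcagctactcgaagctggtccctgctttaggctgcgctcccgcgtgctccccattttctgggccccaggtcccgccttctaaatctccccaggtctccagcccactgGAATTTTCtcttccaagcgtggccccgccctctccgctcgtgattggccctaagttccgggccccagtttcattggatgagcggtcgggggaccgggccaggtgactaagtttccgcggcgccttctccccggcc
MICB: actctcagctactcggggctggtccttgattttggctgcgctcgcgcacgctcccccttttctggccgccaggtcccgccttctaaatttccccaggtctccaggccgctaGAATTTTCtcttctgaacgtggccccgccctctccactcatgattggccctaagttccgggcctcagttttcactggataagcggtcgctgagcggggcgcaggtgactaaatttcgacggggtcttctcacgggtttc
In a global alignment 210 of 246 aligned bases were identical (85.4%), with 8 gap bases. The capitals start 135 bases before the start of MICA and 139 bases before that of MICB. This motif reads the same on both strands and was present in 5.78% of 35116 RefSeq promoters of this length. It overlapped no other motif searched: a GC box (GGGCGG, either strand) and a CCAAT box (CCAAT, either strand) were also found in both, and in 42.6% and 32.0% of all promoters. A hypoxia response core (GCGTG, either strand) was likewise found in both and in 32.2% of all promoters. The other hypoxia core searched (ACGTG, either strand) was found in MICB and in 18.5% of all promoters. Of the heat shock response, the factor HSF1 was at 119.6 and 123.6 CPM in vector cells and at 119.2 and 120.4 CPM in knockdown cells, and the chaperone gene HSPA1A was at 444.1 and 442.6 CPM against 450.5 and 455.8 CPM, neither past the test. HSPA1A and HSPA1B are nearly identical copies, so the split of reads between them is uncertain.

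The classical class I genes on the side of MICA away from MICB also rose. HLA-B went from 40.5 and 40.4 CPM to 55.6 and 48.5 CPM (log2 change 0.36), and HLA-C from 88.7 and 84.0 CPM to 104.2 and 106.9 CPM (log2 change 0.29). On the other side DDX39B, an RNA helicase gene, fell from 330.2 and 340.2 CPM to 305.4 and 303.1 CPM (log2 change -0.14). ATP6V1G2-DDX39B also fell, from 2.97 and 1.14 CPM to 0.646 and 0.0749 CPM, but passed the filter through the vector libraries alone. POU5F1 did not pass the test. The calls of HLA-B, DDX39B and ATP6V1G2-DDX39B were lost with limma without the abundance trend (adjusted p = 0.0703, 0.12 and 0.138). Of 32 tested neighbours of all members, 8 rose and 2 fell, beside 16.6% of all tested genes called higher and 16.8% lower. HLA-B and HLA-C are polymorphic relatives as well, and their values share the same uncertainty about read assignment.

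ULBP2, the NKG2D ligand of the RAET1 cluster on the long arm of chromosome 6, did not pass the test. It stood at 5.88 and 5.38 CPM in vector cells and at 5.38 and 5.92 CPM in knockdown cells, and the groups overlapped (log2 change 0.0049, 95% confidence interval -0.32 to 0.33, limma adjusted p = 0.986). At 71 to 85 reads a library, a change as large as that of MICB lies outside this interval, but one of up to 0.32 in either direction does not. Of its stretches of 50 bases 29.4% also occur in its relative RAET1L, so its reads are less certain than those of MICA or MICB. RAET1L itself was under 1 CPM in every library, and the sum of both genes was 6.09 and 5.68 CPM in vector cells and 5.60 and 6.22 CPM in knockdown cells.

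Of the 5 other NKG2D ligands ULBP1, RAET1E and RAET1G were tested and 0 were called by limma, beside 33.4% of all tested genes. At an unadjusted p under 0.05 the number was also 0, and edgeR and DESeq2 called 0. RAET1E was at 5.46 and 6.13 CPM in vector cells and at 4.95 and 4.64 CPM in knockdown cells (log2 change -0.25). ULBP3 and RAET1L stayed below the filter. All 8 NKG2D ligands together summed to 65.1 and 67.2 CPM in vector cells and to 83.7 and 85.2 CPM in knockdown cells. MICA and MICB made up 70.8% and 69.2% of this sum in vector cells and 76.6% and 75.8% in knockdown cells, while the other 6 genes summed to between 19.0 and 20.7 CPM in all 4 libraries.

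Enzymes that release NKG2D ligands from the surface were measured as a group of 7. Of these 4 rose and 0 fell by limma, beside 16.6% of all tested genes higher and 16.8% lower. At an unadjusted p under 0.05, ADAM10 was also higher and ADAM17 lower, and edgeR and DESeq2 called 0 lower. MMP9, a secreted gelatinase, rose by 1.31 on the log2 scale, from 2.20 ± 0.0123 to 6.24 ± 0.812 CPM (SD, n = 2), and MMP14, a membrane-type metalloprotease, by 0.48, from 24.2 ± 0.318 to 34.0 ± 1.97 CPM (SD, n = 2). ADAM9 rose by 0.41 and the disulfide isomerase PDIA6, which acts on MICA before its cleavage, by 0.18 on the log2 scale; the call of PDIA6 was lost with limma without the abundance trend (adjusted p = 0.0739). The sheddases ADAM10 and ADAM17 did not pass: ADAM10 was at 80.8 and 76.3 CPM against 82.5 and 88.0 CPM, and ADAM17 at 131.4 and 129.8 CPM against 126.1 and 120.5 CPM. The median of the group was 0.18, beside 0.0037 over all genes tested. These are mRNA levels, and surface or shed protein was not measured here.

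PVR, the ligand of the activating receptor CD226 and of the inhibitory receptors TIGIT and CD96, was among the more abundant of the 10 genes and did not pass the test. It was at 70.6 and 74.9 CPM in vector cells and at 72.6 and 70.7 CPM in knockdown cells, and the groups overlapped. The log2 change was -0.021 (95% confidence interval -0.12 to 0.080, limma adjusted p = 0.782). Its related gene CEACAM19 lies at the 3′ end of PVR on the same strand and shares 2.00% of the 50-base stretches of PVR, at a level of 2.42 to 3.87 CPM.

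The nectins, adhesion molecules of the same family as PVR, changed in both directions. NECTIN2 (listed as PVRL2), which shares the receptors CD226 and TIGIT with PVR, rose from 23.9 and 24.0 CPM to 34.7 and 34.2 CPM (log2 change 0.52, limma adjusted p = 1.78e-05). NECTIN3 (PVRL3) rose from 21.4 and 22.6 CPM to 30.6 and 34.2 CPM (log2 change 0.55) and NECTIN4 (PVRL4), a nectin of epithelial cancers, from 13.1 and 13.3 CPM to 22.8 and 21.6 CPM (log2 change 0.73). For these genes both knockdown libraries exceeded both controls, as for 33.4% of all tested genes. NECTIN1 (PVRL1) fell from 54.3 and 55.4 CPM to 45.4 and 40.5 CPM (log2 change -0.35); its call was lost without the abundance trend in limma (adjusted p = 0.0584). CADM1 was at 0 in all libraries, so that 3 of 4 tested genes of this list rose and 1 fell, with a median of 0.53. Among all tested genes 16.6% were called higher and 16.8% lower.

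CD47 rose by a small amount. It was at 60.0 and 58.6 CPM in vector cells and at 66.9 and 72.4 CPM in knockdown cells, and the groups did not overlap. The averages of 59.3 ± 1.01 CPM and 69.7 ± 3.84 CPM (SD, n = 2) gave a log2 change of 0.23 (SE 0.051; limma adjusted p = 0.00229; 95% confidence interval 0.12 to 0.34). CD47 lies at chr3:108043094-108091862 on the minus strand (GRCh38), and 0.132% of its 50-base stretches occur in another gene. The call was lost with DESeq2 (adjusted p = 0.0664) and with limma without the abundance trend (adjusted p = 0.0849), at log2 changes of 0.23 in both; the adjusted p spanned 0.000242 to 0.0849 across its alternatives. The 250 bases before its RefSeq start (GRCh38.p14, minus strand, chr3:108091032-108091281) are shown beside those of MICA and MICB, with no match to GAANNTTC and hence no capitals. The GC box and both hypoxia response cores (GCGTG and ACGTG) were found in it, and the CCAAT box was not.
CD47: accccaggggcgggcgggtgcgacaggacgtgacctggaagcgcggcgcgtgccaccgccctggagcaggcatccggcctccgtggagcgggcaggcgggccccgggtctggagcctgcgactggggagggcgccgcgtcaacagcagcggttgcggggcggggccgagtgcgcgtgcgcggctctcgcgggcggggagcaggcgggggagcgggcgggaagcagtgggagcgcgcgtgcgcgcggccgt

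In a list drawn up around CD47, 3 of 6 tested genes rose and 1 fell, beside 33.4% of all tested genes called in either direction, with a median log2 change of 0.22; with DESeq2 or with limma without the abundance trend 1 rose. Calreticulin (CALR), which at the cell surface can promote uptake by phagocytes, rose from 890.6 and 904.6 CPM to 1247 and 1271 CPM (log2 change 0.49, limma adjusted p = 4.27e-11). LRP1, the phagocyte receptor for calreticulin, rose from 63.0 and 60.1 CPM to 70.4 and 70.7 CPM (log2 change 0.20). THBS1, the secreted CD47 ligand thrombospondin, was at 864.5 and 892.0 CPM in vector cells and at 1165 and 924.1 CPM in knockdown cells (log2 change 0.24, limma adjusted p = 0.00713), so that much of its rise came from knockdown library 1. Calls of LRP1 and THBS1 were lost with DESeq2 (adjusted p = 0.128 and 0.393) and without the abundance trend (0.0778 and 0.274). SLC16A1, a lactate transporter with no known binding to CD47 and the source of the 1 call downward in this list, fell from 362.8 and 347.1 CPM to 281.5 and 269.0 CPM (log2 change -0.37). QPCTL, the enzyme that modifies the end of CD47 for binding to SIRPA, was at 25.9 and 23.2 CPM against 24.5 and 23.0 CPM and did not pass.

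CD276 (B7-H3), a B7 family protein common on carcinomas, had the highest level of the 10 genes and did not pass the test. It was at 227.8 and 237.1 CPM in vector cells and at 240.0 and 243.5 CPM in knockdown cells. The knockdown libraries lay just above the controls (log2 change 0.057, 95% confidence interval -0.0099 to 0.12, limma adjusted p = 0.185), and any change above 0.12 lies outside the interval. VTCN1 (B7-H4), an inhibitor of T cells found on breast and gynaecological carcinomas, was at 4.43 and 3.86 CPM in vector cells and at 4.16 and 4.12 CPM in knockdown cells. The groups overlapped (log2 change 0.0015, 95% confidence interval -0.36 to 0.37, limma adjusted p = 0.996), and at 51 to 64 reads a library the interval leaves room for changes of up to 0.36 in either direction.

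CD274 and PDCD1LG2, the ligands of PDCD1, were near the limit of detection. CD274 had 7 and 9 reads in vector cells and 13 and 15 reads in knockdown cells, or 0.484 and 0.682 CPM against 0.933 and 1.12 CPM. PDCD1LG2 had 8 and 3 reads in vector cells and 14 and 8 in knockdown cells, or 0.553 and 0.227 CPM against 1.00 and 0.599 CPM. In CPM the knockdown libraries were the higher ones for both genes, but for PDCD1LG2 knockdown 2 and control 1 held 8 reads each. The ratio of summed reads, knockdown to control and corrected for depth, was 1.77 for CD274 (95% exact interval 0.927 to 3.51) and 2.03 for PDCD1LG2 (0.942 to 4.63). Both intervals, which cover counting error alone, include 1, so these counts do not show a difference at this depth. Fitted without a filter over all genes with a read, the genes were not called by limma (adjusted p = 0.153 and 0.181) or edgeR (0.288 and 0.282). The unadjusted 95% limma interval of the log2 change was 0.0080 to 0.99 for CD274 and -0.029 to 1.14 for PDCD1LG2.

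CD274 lies at chr9:5450503-5470566 and PDCD1LG2 at chr9:5510570-5571254 (GRCh38), and no 50-base stretch of either occurs in another gene. Of their neighbours, ERMP1, a peptidase gene of the endoplasmic reticulum, rose from 149.2 and 150.9 CPM to 168.4 and 171.9 CPM (log2 change 0.18) and KIAA1432 from 94.6 and 93.1 CPM to 103.5 and 102.6 CPM (log2 change 0.13). Both calls were lost with limma without the abundance trend (adjusted p = 0.0735 and 0.118), and that of KIAA1432 also with DESeq2 (0.243), without control replicate 2 (0.0793) and without knockdown replicate 1 (0.0563). PLGRKT, a plasminogen receptor gene, was at 14.9 and 15.8 CPM against 13.4 and 13.3 CPM, and KIAA2026 at 71.7 and 70.7 CPM against 68.7 and 72.9 CPM. Neither passed. Over the neighbours of all members, 8 of 32 tested rose and 2 fell, beside 16.6% and 16.8% of all tested genes.

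Of 10 other B7 and butyrophilin genes tested, 4 rose and 0 fell by limma, beside 16.6% of all tested genes higher and 16.8% lower. The share called in either direction was 40%, beside 33.4% of all tested genes. At an unadjusted p under 0.05 the number lower was also 0, and edgeR and DESeq2 called 0 lower. The list had a median log2 change of 0.26. CD86, a costimulatory ligand of CD28 and CTLA4, went from 0.346 and 0.682 CPM to 1.94 and 1.72 CPM. It passed the filter through the knockdown libraries alone, so its call is no support for a rise of the list. The 4 that rose, the share of 40% and the median of the list all count CD86 and give no such support either. VSIR (listed as C10orf54), the checkpoint protein VISTA, rose from 6.64 and 6.36 CPM to 9.61 and 9.89 CPM (log2 change 0.55, limma adjusted p = 0.00311; 0.0939 with DESeq2). BTN3A1 and BTN3A2, butyrophilins recognised by gamma delta T cells, rose by 0.31 and 0.30 on the log2 scale to means of 12.6 and 25.5 CPM. BTN3A1, BTN3A2 and BTN3A3 are close relatives among which reads may be shared. The call of BTN3A1 was lost under 8 alternatives, among them DESeq2 (adjusted p = 0.358), the replicate block (0.0583) and leaving out control replicate 1 (0.201), control replicate 2 (0.0568) or knockdown replicate 1 (0.25). That of BTN3A2 was lost under 5, among them DESeq2 (0.184) and leaving out control replicate 1 (0.174, log2 change 0.19) or knockdown replicate 1 (0.154). The number that rose fell to 0 with DESeq2, in which CD86 had no adjusted p. It was 2 without the abundance trend, with no filter, without control replicate 1 and without knockdown replicate 1.

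Genes known to regulate CD274 were called in either direction: 4 of the 26 tested rose (15.4%) and 7 fell, beside 16.6% and 16.8% of all tested genes, with a median of -0.023. With no filter 5 rose and 6 fell. IFNGR1, a chain of the interferon gamma receptor, fell from 81.7 and 82.2 CPM to 60.3 and 63.0 CPM (log2 change -0.41) and SPOP, an adaptor of the ubiquitin ligase that degrades PD-L1, from 61.0 and 59.0 CPM to 40.9 and 41.8 CPM (log2 change -0.53). MYC fell by 0.36 and HIF1A by 0.18 on the log2 scale; both are transcription factors reported to act on CD274, and the call of HIF1A was lost with limma without the abundance trend (adjusted p = 0.0877). IRF1, the factor through which interferon gamma induces CD274, rose from 12.5 and 12.5 CPM to 18.5 and 18.7 CPM (log2 change 0.56, limma adjusted p = 0.000201). CMTM6, which protects PD-L1 from degradation, was at 138.8 and 139.2 CPM against 144.9 and 144.1 CPM and did not pass. Without the abundance trend or with DESeq2, 2 of these genes rose and 4 fell, and without control replicate 1 the number that rose was 2.

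NT5E did not pass the test at its low level. It was at 3.32 and 2.80 CPM in vector cells and at 4.23 and 3.37 CPM in knockdown cells, from 37 to 59 reads a library. The knockdown libraries were higher, knockdown 2 only just above control 1 (log2 change 0.27, 95% confidence interval -0.14 to 0.68, limma adjusted p = 0.316). The value was 0.12 without knockdown replicate 1 and 0.41 without knockdown replicate 2, so its size rested on single libraries.

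Of 11 other genes of the adenosine pathway tested, 2 rose (18.2%) and 3 fell, beside 16.6% and 16.8% of all tested genes. The share called in either direction was 45.5%, beside 33.4% of all tested genes. The list had a median log2 change of -0.0042. ENTPD2, an ectonucleotidase that hydrolyses extracellular ATP, fell from 24.9 and 26.5 CPM to 13.8 and 12.4 CPM (log2 change -0.94, limma adjusted p = 4.87e-07), while ENTPD1 (CD39), the partner of CD73 on immune cells, was at 19.6 and 19.8 CPM against 20.7 and 21.7 CPM and did not pass. The nucleoside transporters SLC29A1 and SLC29A2 fell by 0.26 and 0.22 on the log2 scale. ADA, adenosine deaminase, rose from 23.9 and 24.5 CPM to 32.1 and 36.0 CPM (log2 change 0.48), and ADK, adenosine kinase, rose by 0.21. The receptor ADORA2B was at 17.2 and 16.1 CPM against 15.7 and 17.5 CPM without a call, and ADORA2A was at 0 in all libraries. The calls of ADK and SLC29A2 were lost with DESeq2 (adjusted p = 0.11 and 0.325), without the abundance trend (0.0898 and 0.0569) and without control replicate 1 (0.0571 and 0.143); that of SLC29A2 was also lost without each of the other 3 libraries in turn (0.0689 to 0.0837).

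**Figure D3:**
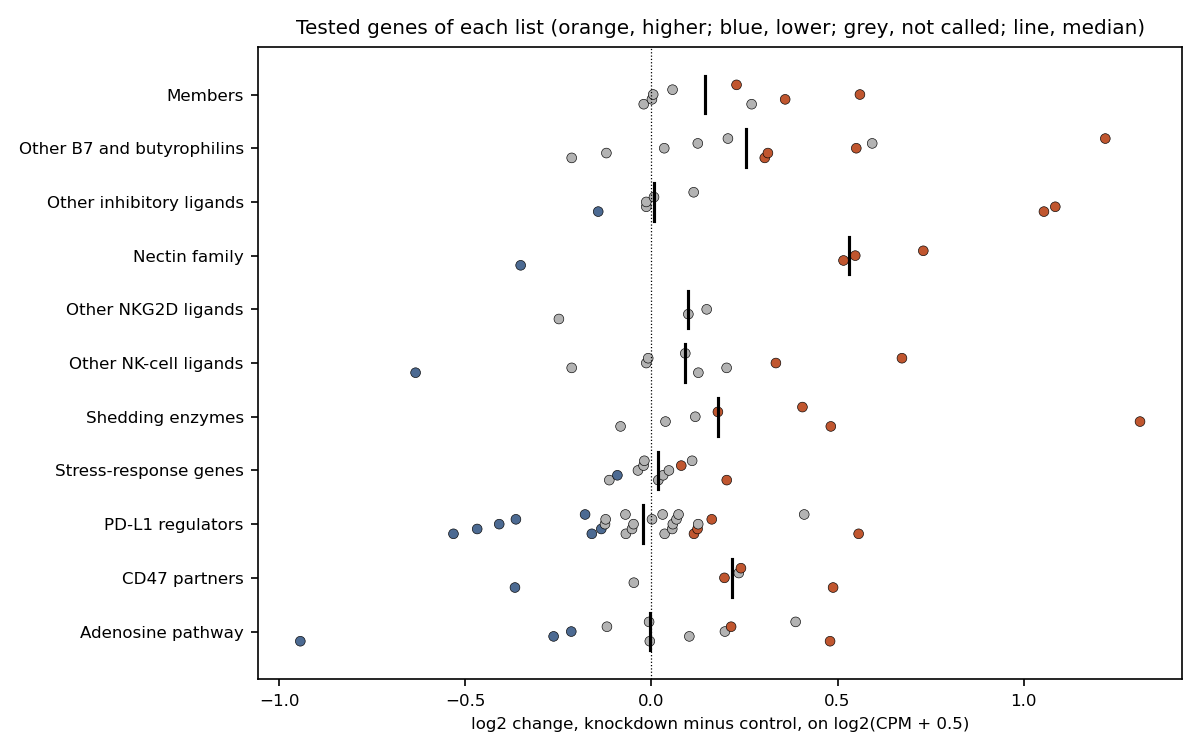
Log2 change (knockdown minus control, x axis) of the tested genes in each list (y axis), in orange where called higher, in blue where called lower and in grey where not called by limma; the black line is the list's median. Members spread between -0.021 and 0.56, the nectins split into 3 higher and 1 lower, and the PD-L1 regulators hold 4 orange and 7 blue points.

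Among other NK cell ligands 2 of 9 tested rose and 1 fell, with a median of 0.091. The share called in either direction, 33.3%, lay near the 33.4% of all tested genes. The adhesion molecule ICAM1, a ligand of the leukocyte integrin LFA-1, rose from 26.8 and 23.8 CPM to 44.2 and 37.2 CPM (log2 change 0.67, limma adjusted p = 8.57e-06), and CD58, the ligand of CD2, from 21.7 and 20.9 CPM to 24.6 and 29.5 CPM (log2 change 0.33). The call of CD58 was lost without knockdown replicate 2 (adjusted p = 0.137), with DESeq2 (0.108) and with limma without the abundance trend (0.115). NID1, a basement membrane protein, was at 8.92 and 10.1 CPM against 7.61 and 4.64 CPM; its fall (log2 change -0.63) lost its call without knockdown replicate 2 (adjusted p = 0.171), with no filter (0.0714), with DESeq2 (0.104) and without the trend (0.172). NCR3LG1 (B7-H6), the ligand of NCR3, was at 7.68 and 8.48 CPM against 6.53 and 7.27 CPM, and HLA-E, the ligand of the inhibitory receptor NKG2A, at 88.5 and 93.1 CPM against 88.9 and 91.0 CPM; neither passed.

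Of 7 other inhibitory ligands tested 2 rose and 1 fell, with a median of 0.0070. The share called in either direction was 42.9%, beside 33.4% of all tested genes. CD24, a ligand of the macrophage receptor SIGLEC10, went from 278.1 ± 6.34 to 578.2 ± 9.67 CPM (SD, n = 2). TNFRSF14, the ligand of BTLA, rose from 0.968 and 0.909 CPM to 2.80 and 2.32 CPM. It passed the filter through the knockdown libraries alone, so its call is no support for a rise of the list. The 2 that rose, the share of 42.9% and the median all count TNFRSF14 and give no such support either. Its call was lost with DESeq2 (adjusted p = 0.0532). LGALS3, a galectin, fell by 0.14 on the log2 scale, a call lost with limma without the abundance trend (adjusted p = 0.122). Of 11 stress-response genes tied to NKG2D ligands 27.3% were called in either direction, beside 33.4% of all tested genes, with a median of 0.019. Among those called, XBP1, a factor of the unfolded protein response, rose by 0.20 on the log2 scale. ATF4, a factor of the integrated stress response, fell by 0.091. With DESeq2 or with limma without the abundance trend neither was called (adjusted p = 0.0679 to 0.242). The call of ATF4 was also lost without control replicate 1 (0.0572), control replicate 2 (0.186) or knockdown replicate 1 (0.173).

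Levels of different genes were compared per length, as CPM per kb of exon in GENCODE 29. In vector cells CD276 came first at 52.2 CPM per kb, followed by PVR at 20.7, CD47 at 11.2, MICA at 9.32, MICB at 9.29, ULBP2 at 4.17, VTCN1 at 1.37, NT5E at 0.722, PDCD1LG2 at 0.165 and CD274 at 0.158 CPM per kb. MICA and MICB did not differ beyond their spread in this order, nor did PDCD1LG2 and CD274. In the knockdown MICB ranked next after PVR at 13.8 CPM per kb, ahead of CD47 at 13.2 CPM per kb and ahead of MICA; the values of MICB (13.5 and 14.1) overlapped those of CD47 (12.7 and 13.7), while those of MICA (12.2 and 11.8) lay below both. The other places were the same in both groups. These lengths come from all exons of the basic annotation and not from the transcripts used in this line.

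**Figure D4:**
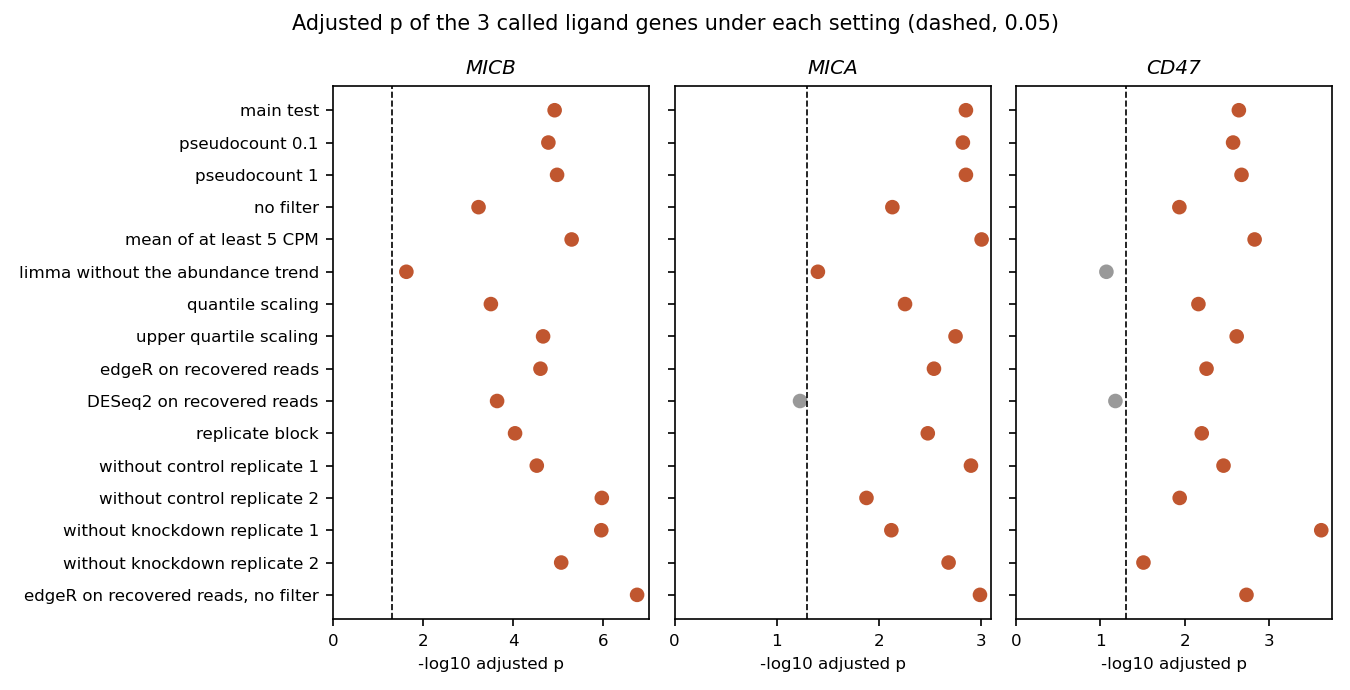
Adjusted p on a -log10 scale (x axis) of MICB, MICA and CD47 under the main test and each other setting (y axis), with the dashed line at 0.05 and points past it in orange. MICB is past the line in every setting shown, MICA misses it with DESeq2, and CD47 misses it with DESeq2 and without the abundance trend.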

How the data were processed

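The deposited table holds TMM-normalized CPM, which the authors computed from reads per gene; the build GRCh38 and the tools STAR, DESeq2 and bcl2fastq 2.17 appear in the submitters' processing notes. Ribosomal RNA was removed from 1 µg of RNA per sample, and single reads of 50 bases were made, per the labels' protocols. Which program, annotation and strand setting counted the reads was not given in the sources used here. Dividing each CPM by the value of 1 read gave numbers within 0.1 of a whole read for 100% of the genes in every library. These recovered reads served edgeR and DESeq2; edgeR called 2135 genes higher and 2371 lower and DESeq2 993 and 1181. The value of 3 reads, the limit that a count of 0 allows, was 0.208 to 0.227 CPM and covers counting error alone. Replicates differed by more than counting noise (chi-square per gene 1.64 and 1.62).

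The main test was the two-sided one of limma 3.58.1 under R 4.3.3, with group as the single term and a trend of variance on abundance, applied to log2(CPM + 0.5); edgeR was 4.0.16 and DESeq2 1.42.0. A log2 change on this scale understates that of low genes. The test was also checked on simulated data. There it called 54% of genes changed 1.25-fold, 71.2% of those changed 1.5-fold, 89.6% of those changed 2-fold and 0.123% of unchanged genes. Far fewer genes were changed in the simulation than were called here, so these shares may differ from those in the data. Alternatives were other pseudocounts, filters, scalings and tools, a replicate block and leaving out each library. The members and gene lists were chosen with earlier results of these data known. Named genes were EMP2, all 10 members, up to 4 called genes per list by adjusted p, regulators, partners and enzymes of a member, and the nearest 3 coding genes on each side. Older symbols were matched through the reference tables, and RefSeq promoters were found for 9 of the 10 members. Positions are from GENCODE 29. A gene of the stress-response list is not reported here.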

Additional observations from a re-analysis of the deposited data

How the results depend on the processing

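MICB kept its direction and its call under all 15 alternatives, with log2 changes from 0.50 to 0.62. MICA kept its direction under 15 and lost its call with DESeq2 (0.36, adjusted p = 0.0591), and CD47 lost its call with DESeq2 (0.23, adjusted p = 0.0664) and with limma without the abundance trend (0.23, adjusted p = 0.0849); the cause was not tested. The number of members called higher was 1 with DESeq2 and 3 without each library in turn. CD276, PVR, NT5E, ULBP2 and VTCN1 were called under no alternative that gave them a value. The counts over all genes fell to 916 higher and 1016 lower without the abundance trend and to 993 and 1181 with DESeq2; leaving out 1 library gave 1823 to 2029 higher and 1842 to 2059 lower. Without a filter, an alternative chosen after seeing the data, edgeR gave log2 changes of 0.81 for CD274 and 1.00 for PDCD1LG2, neither called. Of 41 called genes of the other lists 16 were called under every alternative, 23 lost the call under at least 1 and 0 changed direction; CD86 and MMP9 had no value under at least 1. With the replicate number as a block the 3 member calls held (MICB limma adjusted p = 9.04e-05) and 2162 genes were higher and 2180 lower. Same-numbered libraries did not deviate together (r = 0.0158 over 11095 genes). This correlation cannot tell whether they shared a culture day or a preparation, which the labels do not give. The 2 libraries per group, of unstated culture origin, limit every p-value, and depth limits CD274, PDCD1LG2, NT5E, VTCN1 and ULBP2.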
